A study of Mus musculus with 12 samples.

Results

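Macrophages and dendritic cells were followed in bulk mouse mammary tumours through 36 genes taken by symbol out of 39017 genes in the count table. Of these, 23 mark macrophages and monocytes and 13 mark dendritic cells. Each symbol had a single gene identifier, and all 36 genes passed the filter on low counts that left 19370 genes for testing. The tumours grew from NIC, a murine ErbB2-positive breast cancer line that has no p66ShcA of its own; p66ShcA is the longest protein made by the adaptor gene Shc1, and it was constitutively overexpressed after engineering of the parental cells. There were 12 tumours in 4 groups of 3, from NIC/p66Low parental, NIC/p66High parental, NIC/p66Low aggressive and NIC/p66High aggressive cells. The aggressive populations had gone through 2 rounds of growth in the fat pad and back into culture, and the submitters describe them as growing faster and metastasising more than the parental cells. All groups shared the host and the graft: 250000 cells in Matrigel were injected into mammary fat pad 4 of FVB/N females aged 8 to 12 weeks, an immune-competent inbred strain. As far as the labels say, each arm rests on 1 line and the population explanted from it, so that a difference between arms is one between these cell populations.

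Macrophages engulf debris and dying cells and are kept alive by signals through the receptor CSF1R. Tissue macrophages make the C1q proteins that start the classical complement pathway, and their monocyte precursors are drawn from blood through the receptor CCR2. Conventional dendritic cells depend on the receptor FLT3 and carry antigen to lymph nodes: the cDC1 type, marked by XCR1 and CLEC9A, presents antigen of dead cells to CD8 T cells, the cDC2 type presents mainly to CD4 T cells, and plasmacytoid dendritic cells make type I interferon. No gene here belongs to 1 cell type alone: ITGAE (CD103) is also on T cells, ITGAX (CD11c) on many macrophages, CD86 on B cells, and APOE and ARG1 are made by other cells as well.

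Promoters are shown for 3 members whose levels behaved differently among the tumours: C1qb, which was higher in every p66Low aggressive tumour than in the other 9, Itgax, whose change was as large without the libraries rich in lymph node RNA, and Marco, which was high in those libraries. The windows are RefSeq's, on GRCm38.p6, and run from 250 bases before the annotated start to the start, 5′ to 3′ on the gene's own strand. C1qb is at chr4:136886201-136886450 on the minus strand, Itgax at chr7:128129300-128129549 on the plus strand and Marco at chr1:120505025-120505274 on the minus strand. Capitals mark matches to GAGGAA, the core bound by the myeloid factor PU.1, on either strand.
C1qb: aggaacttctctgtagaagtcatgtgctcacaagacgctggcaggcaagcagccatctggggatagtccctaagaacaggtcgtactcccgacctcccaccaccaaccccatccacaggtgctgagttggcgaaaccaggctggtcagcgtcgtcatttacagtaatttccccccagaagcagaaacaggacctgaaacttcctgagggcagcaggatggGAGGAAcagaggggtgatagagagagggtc
Itgax: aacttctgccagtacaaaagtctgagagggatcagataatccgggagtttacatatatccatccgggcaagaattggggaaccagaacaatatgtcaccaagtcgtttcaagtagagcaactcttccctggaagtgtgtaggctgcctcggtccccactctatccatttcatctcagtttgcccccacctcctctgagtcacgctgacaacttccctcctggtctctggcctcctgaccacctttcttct
Marco: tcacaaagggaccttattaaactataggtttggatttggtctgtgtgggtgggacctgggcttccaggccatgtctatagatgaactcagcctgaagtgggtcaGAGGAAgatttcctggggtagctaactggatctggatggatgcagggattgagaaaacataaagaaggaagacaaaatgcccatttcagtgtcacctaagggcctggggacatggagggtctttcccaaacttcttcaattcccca
Of the 36 members, 26 were in the promoter table, with 29 windows. GAGGAA was in 12 of these 29 windows and in 23.3% of all 32851 windows of the same length. It was in the windows of 9 of 16 macrophage genes in the table (Cd68, Mrc1, Marco, Trem2, C1qb, C1qc, Aif1, Itgam and Apoe) and of 2 of 10 dendritic cell genes (Batf3 and Mgl2). A match is a run of letters and not a measured site.

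Library totals ran from 17.4 to 76.1 M counts, so that 3 counts, taken as the floor for an undetected gene, were worth 0.156 to 0.0394 CPM (counts per 1 M counts of the library). Shc1 followed the labels, at 59.0 to 69.9 CPM in the 6 p66Low tumours and 223 to 774 CPM in the 6 p66High tumours. The epithelial markers Epcam, Krt8, Krt18 and Cdh1 summed to 1894 to 2996 CPM in every tumour. Libraries stood apart in lymph node RNA: 7 lymph node stroma genes summed to 27.2 CPM (p66High parental replicate 3), 77.8 CPM (p66Low aggressive replicate 1) and 109.6 CPM (p66Low aggressive replicate 2) in 3 libraries. The remaining 9 had 0 to 0.928 CPM, with the highest in p66Low aggressive replicate 3. In the same 3 libraries 8 B cell genes summed to 35.9, 127.6 and 177.8 CPM, against at most 3.74 CPM elsewhere. Lymph nodes are rich in dendritic cells and hold macrophages of their own. Member values and list medians are therefore given with and without these libraries, and the part of the lymph node RNA in a result was not tested beyond that. Without them the p66Low aggressive group is 1 tumour, replicate 3, assumed to vary like the other groups. Nothing in the labels says that the tumours of a group are from different mice, so a p-value here reflects the spread among these samples only. In both p66High groups the first and second replicates carry 1 common number in their titles, told apart by the letters L and R. Whether such a pair came from 1 mouse is not given in the sources used here. Bulk RNA cannot tell fewer cells of a type from less RNA per cell.

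The highest levels per length of transcript were those of macrophage genes. In CPM per kb of exon, Apoe had a median over the 12 tumours of 189, the lysozyme gene Lyz2 163, the arginase gene Arg1 96.2, C1qa 74.5, C1qb 36.1 and C1qc 22.7. The adaptor gene Tyrobp followed at 21.2, the mannose receptor gene Mrc1 at 13.5 and Csf1r at 9.64. The highest dendritic cell genes on this scale were Clec10a at 3.97 and Itgax at 2.3. The cDC1 genes Xcr1 and Clec9a, at 0.0819 and 0.0828, were the lowest together with Marco, at 0.0825. The ranges of neighbouring genes in this order overlapped over the 12 tumours.

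**Figure D1:**
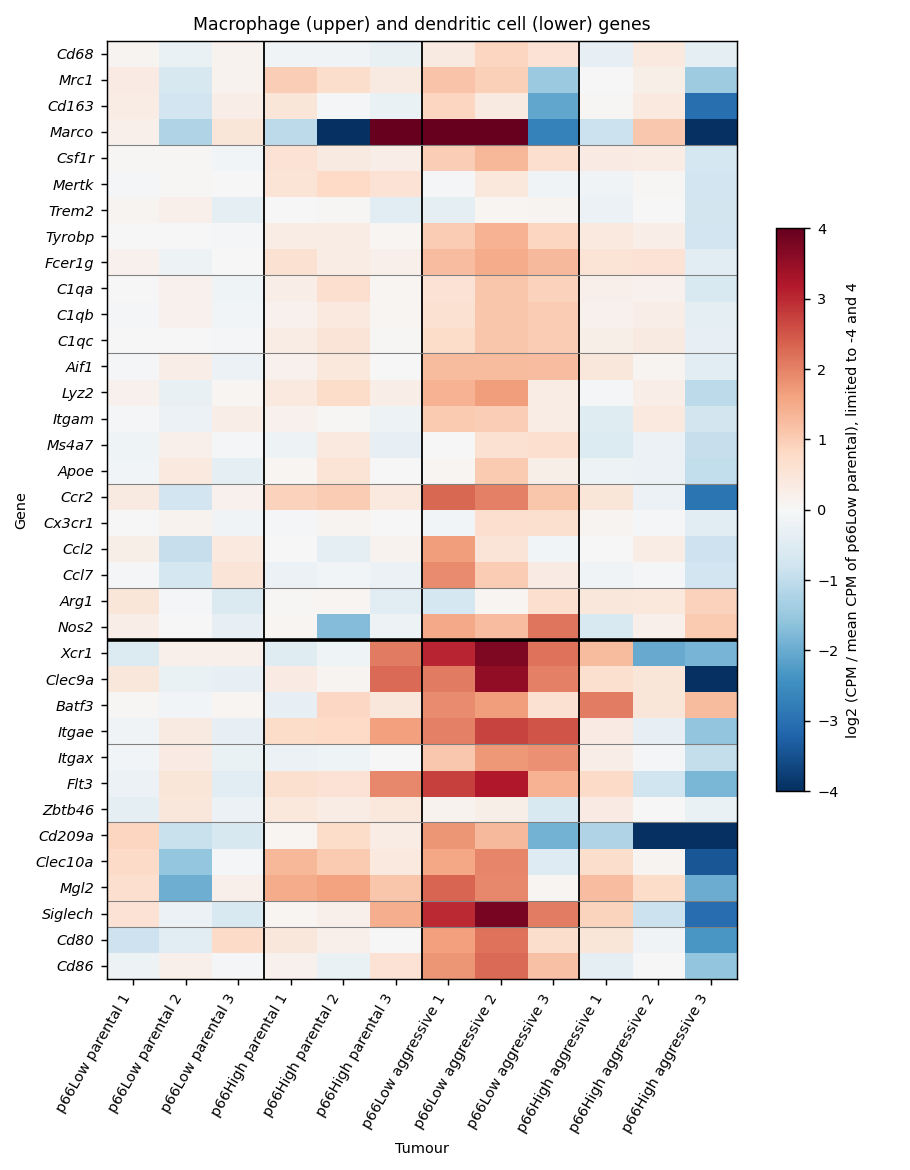
Level of each gene (rows, macrophage genes above the thick line and dendritic cell genes below) in each of the 12 tumours (columns), as log2 of its CPM over the mean CPM of p66Low parental tumours, limited to -4 and 4. The 3 p66Low aggressive tumours are mostly red, and p66High aggressive replicate 3 is the bluest column, with the lowest level of 27 of the 36 genes (not counted over all genes).

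Selection of p66Low cells went with higher levels of macrophage and dendritic cell genes. In p66Low aggressive against p66Low parental tumours, 9 of 23 macrophage genes and 7 of 13 dendritic cell genes rose and none fell (edgeR quasi-likelihood F-test, Benjamini-Hochberg adjusted over 19370 genes, threshold 0.05), while 9.6% of all genes tested rose. The median log2 difference was 0.90 for the macrophage genes and 1.69 for the dendritic cell genes, against -0.02 for all genes tested. In p66High aggressive against p66Low aggressive tumours, 14 of 23 macrophage genes and 8 of 13 dendritic cell genes fell and none rose, while 12.1% of all genes fell. The medians were -0.97 and -2.31, against 0.02 for all genes. These comparisons share the p66Low aggressive tumours, so their calls are not independent.

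Without the 3 libraries with lymph node RNA, the p66Low aggressive group is 1 tumour, replicate 3, and most member calls were lost. Sizes alone are given here. In p66Low selection the medians were then 0.64 and 1.18. In p66High against p66Low aggressive tumours they were -0.63 and -1.53. All genes tested had medians of -0.03 and 0.03 in these fits. The counts also moved with single tumours. The p66Low selection count for macrophage genes was 5 without p66Low parental replicate 3 and 4 without p66Low aggressive replicate 2. For dendritic cell genes it was 4 without p66Low parental replicate 1 and 3 without p66Low parental replicate 3 or p66Low aggressive replicate 2. Between aggressive groups 7 macrophage genes passed without p66Low aggressive replicate 2, and 5 dendritic cell genes without that same tumour, p66High aggressive replicate 2 or p66High aggressive replicate 3. With tumours that share a title number summed to 1 sample, 17 of 22 member calls held between aggressive groups (all but Apoe, Ccr2, Ccl7, Clec9a and Cd209a, adjusted p = 0.0619 to 0.0814) and 14 of 16 in p66Low selection (all but Lyz2, 0.0547, and Clec9a, 0.0612).

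**Figure D2:**
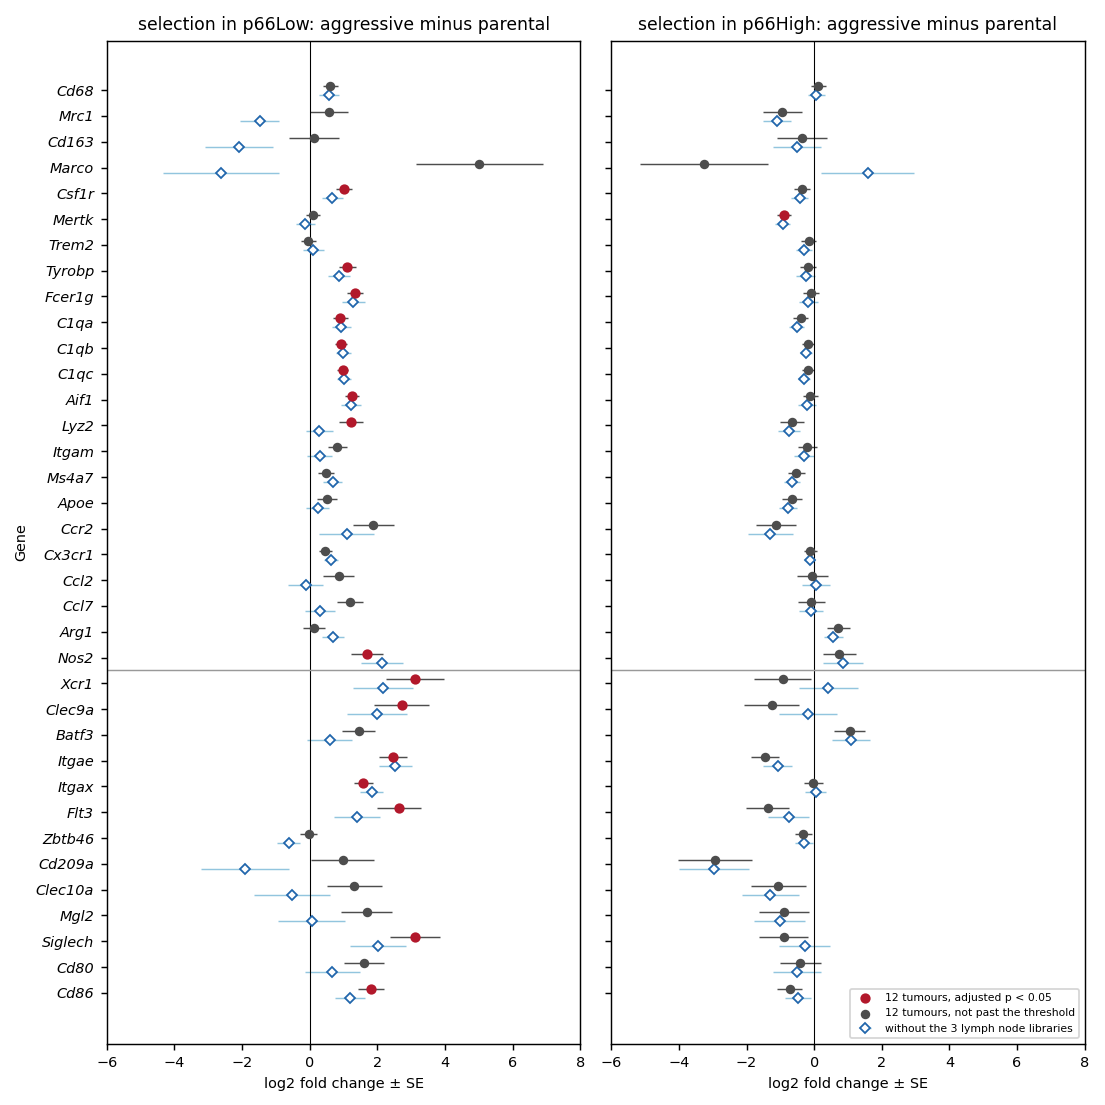
Log2 fold change ± SE of each gene (rows) in aggressive against parental tumours, in p66Low (left) and p66High (right). Red points passed the threshold, grey points did not, and open diamonds are the fit without the 3 libraries with lymph node RNA. On the left most points lie above 0, and the diamonds of Mrc1, Cd163, Marco and Cd209a lie furthest below 0.

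The C1q genes rose in p66Low selection. Sizes were alike without the libraries with lymph node RNA, a fit with 1 p66Low aggressive tumour. They lie side by side on the minus strand of mm10 chromosome 4, C1qb at 136880129 to 136886187, C1qc at 136889804 to 136893065 and C1qa at 136895917 to 136898803, and encode the chains of 1 protein. C1qb was at 33.3, 39.1 and 32.0 CPM in p66Low parental, 39.3, 45.6 and 37.0 CPM in p66High parental, 53.7, 75.5 and 69.6 CPM in p66Low aggressive and 39.2, 41.9 and 26.7 CPM in p66High aggressive tumours. C1qc was at 36.9, 37.1 and 35.0, then 44.8, 52.1 and 37.8, then 60.8, 78.7 and 73.7, and 42.7, 46.5 and 28.7 CPM in the same order of groups. For both genes every p66Low aggressive tumour, including replicate 3, low in lymph node RNA, lay above all other 9 tumours. C1qa, at 67.1, 76.9 and 59.7, then 81.8, 108 and 71.5, then 102, 148 and 129, and 78, 76.7 and 44.3 CPM, had 1 exception to this: p66High parental replicate 2 lay above p66Low aggressive replicate 1. The log2 rise in p66Low selection was 0.93 (SE 0.18, edgeR adjusted p = 0.00551) for C1qb, 0.97 (SE 0.17, adjusted p = 0.00429) for C1qc and 0.90 (SE 0.22, adjusted p = 0.0197) for C1qa. Without the 3 libraries it was 1.00, 1.02 and 0.93. Against p66Low aggressive, p66High aggressive tumours were lower by 0.88, 0.85 and 0.93 on the log2 scale (adjusted p = 0.00506, 0.00566 and 0.013). Those differences were -0.94, -0.89 and -0.95 without the 3 libraries. The calls of C1qb and C1qc held whichever tumour of the groups compared was left out. C1qa did not pass in p66Low selection without p66Low parental replicate 1 (adjusted p = 0.0588), p66Low parental replicate 3 (0.0778) or p66Low aggressive replicate 2 (0.0803), nor in the aggressive comparison without the last of these (0.0562). The 3 genes kept a fixed ratio: C1qa made up 44.5% to 52.6% of their summed CPM, C1qb 22.1% to 26.8% and C1qc 24.2% to 28.8% over the 12 tumours.

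Receptor and adaptor genes split into those that moved with C1q and those that did not. Csf1r, the receptor for the macrophage growth factors CSF1 and IL-34, was at 46.0, 46.5 and 41.5 CPM in p66Low parental, 67.2, 57.3 and 53.8 in p66High parental, 88.2, 112 and 71.3 in p66Low aggressive and 56.1, 55.2 and 27.2 CPM in p66High aggressive tumours. Fcer1g, the signalling chain of Fc receptors, was at 6.53, 5.07 and 5.88, then 8.98, 7.18 and 6.75, then 13.7, 16.2 and 14.3, and 8.48, 8.68 and 4.36 CPM. Tyrobp (DAP12), the adaptor that carries signals of TREM2 and other receptors, was at 11.9, 11.9 and 11.3, then 14.3, 14.4 and 12.3, then 23.6, 30.8 and 21.3, and 15.4, 13.9 and 6.90 CPM. In all 3 genes the p66Low aggressive tumours lay above the other 9. The log2 rise in p66Low selection was 1.02 for Csf1r (SE 0.24, edgeR adjusted p = 0.0155), 1.34 for Fcer1g (SE 0.24, adjusted p = 0.00426) and 1.11 for Tyrobp (SE 0.24, adjusted p = 0.0111). The aggressive p66High tumours were lower by 0.97, 1.04 and 1.06 on the log2 scale (adjusted p = 0.0149, 0.0101 and 0.0103). Csf1r did not pass in p66Low selection without p66Low parental replicate 3 (adjusted p = 0.0638), and without p66Low aggressive replicate 2 it passed in neither comparison (0.0685 and 0.0677). Tyrobp did not pass in p66Low selection without that same tumour (0.0508). When the 3 libraries were left out, the rises were 0.67, 1.29 and 0.86 and none passed (adjusted p = 0.31, 0.079 and 0.22). The differences between aggressive groups were then -0.61, -0.98 and -0.81 and none passed (adjusted p = 0.33, 0.15 and 0.22). Exons of Csf1r overlap Hmgxb3 on the other strand, and the strand setting of the counting is not given in the sources used here.

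Mertk, a receptor for the engulfment of dying cells, and Trem2, a lipid-sensing receptor, did not follow. Mertk was at 7.75, 8.44 and 8.24 CPM in p66Low parental, 12.0, 14.1 and 12.2 in p66High parental, 7.76, 10.9 and 7.46 in p66Low aggressive and 7.39, 8.33 and 4.83 CPM in p66High aggressive tumours. It was highest in the p66High parental tumours, which lay above all others. Its log2 difference was 0.10 in p66Low selection (adjusted p = 0.798) and -0.89 in p66High selection (SE 0.21, edgeR adjusted p = 0.0295). That fall was the 1 call among the 23 macrophage genes in p66High selection, where 2.82% of all genes tested fell and 5.94% passed in either direction. It did not pass when p66High parental replicate 1, 2 or 3 or p66High aggressive replicate 1 or 3 was left out (adjusted p = 0.0605 to 0.115), nor without the 3 libraries with lymph node RNA (-0.93, adjusted p = 0.063) or with tumours sharing a title number summed (-0.99, adjusted p = 0.113). Trem2 ranged from 6.60 to 12.6 CPM over the 12 tumours, with log2 differences between -0.24 and -0.04 in the 4 comparisons between groups and no call.

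Among other myeloid genes Aif1, which encodes the actin-binding protein IBA1, had near-equal levels in the 3 p66Low aggressive tumours. It was at 6.99, 8.77 and 6.16 CPM in p66Low parental, 8.21, 9.75 and 7.27 in p66High parental, 17.6, 17.6 and 17 in p66Low aggressive and 9.97, 7.82 and 5.44 CPM in p66High aggressive tumours. It rose by 1.25 on the log2 scale in p66Low selection (SE 0.21, edgeR adjusted p = 0.00344) and was lower by 1.16 in p66High than in p66Low aggressive tumours (adjusted p = 0.00339). Both calls held whichever tumour of the groups compared was left out. Without the 3 libraries, with 1 p66Low aggressive tumour left, the values were 1.22 and -1.12. Lyz2 was at 201, 143 and 188, then 231, 296 and 215, then 465, 563 and 217, and 169, 215 and 86.1 CPM. Its 2 high tumours were those with lymph node RNA, and p66Low aggressive replicate 3 lay in the range of the p66High parental tumours. Its rise of 1.23 (adjusted p = 0.0368) was 0.29 without the 3 libraries (adjusted p = 0.77), and it did not pass without any 1 of p66Low parental replicates 1 to 3 or p66Low aggressive replicates 1 and 2 (adjusted p = 0.0746 to 0.148). In the aggressive comparison Lyz2 fell by 1.4 (adjusted p = 0.0171), a call lost without p66Low aggressive replicate 2 (0.074) or p66High aggressive replicate 3 (0.0522). That difference was -0.46 without the 3 libraries (adjusted p = 0.602). Of its 50-base words, 15.4% also occur in Lyz1, so reads may be shared.

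Ms4a7, a membrane protein gene of tissue macrophages, passed in the aggressive comparison and not in selection. It was at 15.7, 20.4 and 16.8 CPM in p66Low parental, 15.2, 23.3 and 14 in p66High parental, 18, 26.8 and 28.4 in p66Low aggressive and 12.2, 14.9 and 9.27 CPM in p66High aggressive tumours. Between aggressive groups the log2 difference was -1.01 (SE 0.24, edgeR adjusted p = 0.0122). It was -1.22 without the 3 libraries, with 1 p66Low aggressive tumour left. Apoe, a lipid carrier gene, was at 366, 519.9 and 309, then 425, 578 and 389.8, then 419, 818 and 469.9, and 344, 337 and 201 CPM, with a difference of -0.95 between aggressive groups (adjusted p = 0.0395). Cd68, a lysosomal membrane gene, was at 10.7, 8.36 and 11.1, then 9.22, 9.22 and 8.14, then 13.0, 18.1 and 15, and 7.99, 13.2 and 7.81 CPM, with a difference of -0.68 (adjusted p = 0.0426). Groups overlapped for Cd68 and not for Apoe in that comparison. Without p66Low aggressive replicate 2 neither passed (adjusted p = 0.168 for Cd68 and 0.189 for Apoe). Cd68 was also lost without p66Low aggressive replicate 3 (0.0659), p66High aggressive replicate 1 (0.141) or p66High aggressive replicate 3 (0.134), and Apoe without p66High aggressive replicate 1 (0.0573), 2 (0.0659) or 3 (0.129). The differences without the 3 libraries were -0.63 for Cd68 and -0.66 for Apoe (adjusted p = 0.297 and 0.322). Itgam (CD11b) was at 17.1, 15.3 and 21.4, then 20.4, 18.4 and 15.4, then 37.3, 35.8 and 22.1, and 12.8, 23.3 and 10.7 CPM, with a difference of -1.02 between aggressive groups (adjusted p = 0.0242). Its 2 highest tumours were those with lymph node RNA, and without the 3 libraries the difference was -0.49 (adjusted p = 0.53). It was not called without p66Low aggressive replicate 1 or 2 or p66High aggressive replicate 1 or 3 (adjusted p = 0.0759 to 0.0871), and its counts are uncertain, since 66.3% of its 50-base words belong also to Gm49368, which overlaps it on the same strand.

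**Figure D3:**
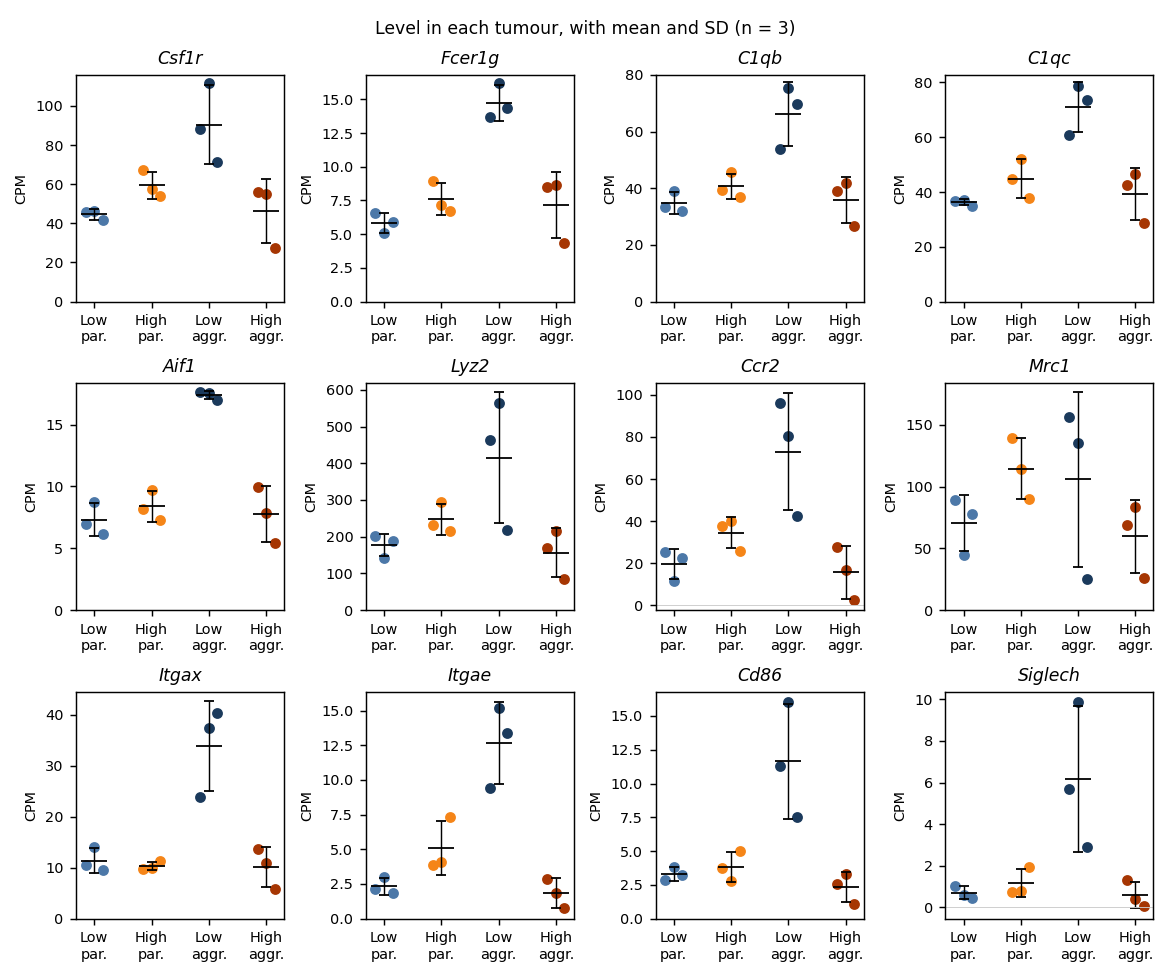
CPM of 12 of the genes in each tumour (points), by group on the x axis, with mean and SD (n = 3). C1qb, C1qc, Fcer1g, Aif1 and Itgax stand high in all 3 p66Low aggressive tumours, while Lyz2, Mrc1 and Siglech spread widely within that group.

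Genes of monocyte recruitment had higher mean levels in the p66Low aggressive group without passing in selection in the main fit. Without the 3 libraries, with 1 p66Low aggressive tumour left, the log2 difference in p66Low selection was -0.12 for Ccl2. It was 0.31 for Ccl7 and 0.64 for Cx3cr1. Ccr2 was at 25.3, 11.6 and 22.3 CPM in p66Low parental, 37.7, 40.1 and 26.0 in p66High parental, 96.3, 80.2 and 42.3 in p66Low aggressive and 27.8, 16.7 and 2.63 CPM in p66High aggressive tumours. Its log2 difference was 1.88 in p66Low selection (SE 0.60, edgeR adjusted p = 0.0531) and -2.19 between aggressive groups (SE 0.61, adjusted p = 0.0245). The 2 libraries with lymph node RNA were the highest, and without the 3 libraries the values were 1.09 (adjusted p = 0.54) and -1.4 (adjusted p = 0.39). Ccl7, a ligand of CCR2, was at 3.27, 2.11 and 4.86, then 2.93, 3.13 and 2.91, then 12.6, 6.87 and 4.27, and 3.10, 3.34 and 2.03 CPM. It was lower by 1.47 on the log2 scale in p66High than in p66Low aggressive tumours (adjusted p = 0.0208) and by 0.58 without the 3 libraries (adjusted p = 0.53). Ccr2 lost that call without p66Low aggressive replicate 1 (0.0695) or 2 (0.066) or p66High aggressive replicate 2 (0.0697), and Ccl7 without p66Low aggressive replicate 1 (0.0836) or p66High aggressive replicate 3 (0.0789). In p66Low selection Ccr2 passed with DESeq2 (adjusted p = 0.0326), and in edgeR without the filter (0.0315) or with only the groups compared (0.0241). Ccl7 passed there with DESeq2 (0.0148). Ccl2, the other CCR2 ligand, ranged from 2.96 to 17.8 CPM and Cx3cr1, the fractalkine receptor, from 19.0 to 41.1 CPM, with no call for either in the main fit. Between aggressive groups Cx3cr1 passed with RLE size factors (0.0483), library size only (0.0374) and DESeq2 (0.0202).

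The enzymes that compete for arginine differed. Nos2, inducible nitric oxide synthase, was at 1.27, 1.06 and 0.832 CPM in p66Low parental, 1.11, 0.317 and 0.919 in p66High parental, 3.02, 2.49 and 4.64 in p66Low aggressive and 0.685, 1.22 and 2.16 CPM in p66High aggressive tumours. Every p66Low aggressive tumour lay above the other 9, and the highest was replicate 3, low in lymph node RNA. Nos2 rose by 1.69 on the log2 scale in p66Low selection (SE 0.48, edgeR adjusted p = 0.0332), by 2.13 without the 3 libraries (adjusted p = 0.11), and leaving out any 1 of the 6 tumours ended the call (adjusted p = 0.0524 to 0.116). Arg1 ranged from 125 to 382 CPM with no call, and its highest level was in p66High aggressive replicate 3, where 27 of the 36 members had their lowest. The ratio of Arg1 to Nos2 CPM was 41.4 to 86.5 in p66Low aggressive tumours and 162 to 673 in the other 9.

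Scavenger receptors did not move as a group. Mrc1 ranged from 25.3 to 157 CPM and Cd163, the haemoglobin scavenger receptor gene, from 0.992 to 14.5 CPM. Their log2 differences in p66Low selection were 0.58 and 0.12 (adjusted p = 0.535 and 0.937), and -1.48 and -2.09 without the 3 libraries (adjusted p = 0.23 and 0.33). For both genes p66Low aggressive replicates 1 and 2 lay above all 3 parental tumours of the line and replicate 3 below them. Marco, a scavenger receptor of marginal zone and lymph node macrophages, had levels of 4.42, 7.35 and 11.8 CPM in the 3 libraries rich in lymph node RNA. It was at 0 to 0.393 CPM in the other 9. Its log2 difference in p66Low selection was 5.02 (SE 1.87, adjusted p = 0.0901), and -2.62 without those libraries (adjusted p = 0.48).

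**Figure D4:**
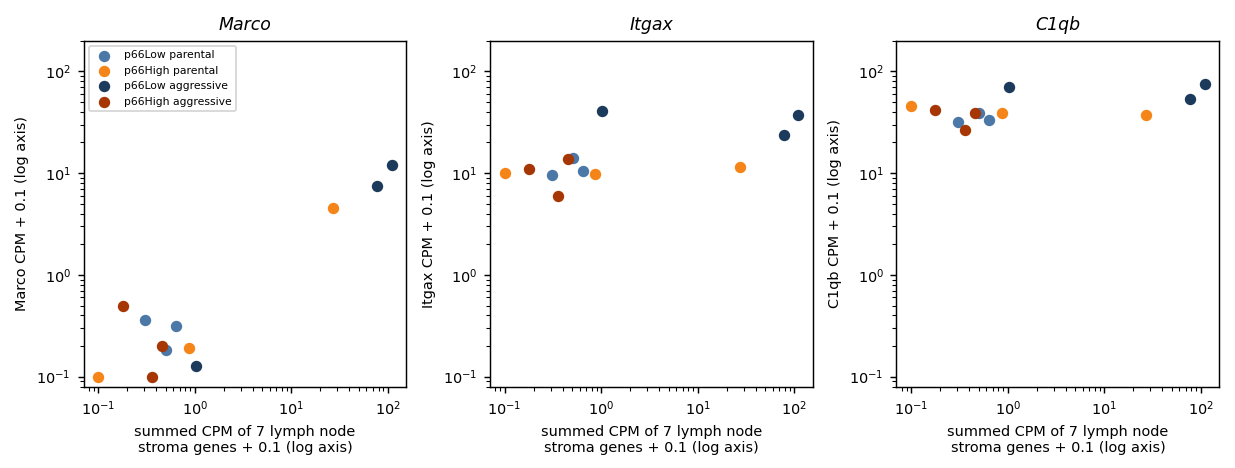
CPM of Marco, Itgax and C1qb (y axis, plus 0.1, log scale) against the summed CPM of 7 lymph node stroma genes (x axis, plus 0.1, log scale) in the 12 tumours, coloured by group. Marco is high in the 3 libraries on the right, while Itgax and C1qb are as high in p66Low aggressive replicate 3, at the left, as in the other p66Low aggressive tumours.

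Among dendritic cell genes the integrins had the smallest adjusted p in p66Low selection. Itgax was at 10.5, 14.1 and 9.54 CPM in p66Low parental, 9.70, 9.99 and 11.3 in p66High parental, 23.9, 37.4 and 40.4 in p66Low aggressive and 13.6, 10.8 and 5.91 CPM in p66High aggressive tumours. Itgae was at 2.13, 3.00 and 1.85, then 3.83, 4.08 and 7.32, then 9.43, 15.2 and 13.4, and 2.89, 1.85 and 0.776 CPM. In both genes the p66Low aggressive tumours lay above the other 9, and replicate 3 was among the 2 highest. In p66Low selection the log2 rise was 1.58 for Itgax (SE 0.28, edgeR adjusted p = 0.00426) and 2.46 for Itgae (SE 0.42, adjusted p = 0.00346). Between aggressive groups the differences were -1.74 (adjusted p = 0.00191) and -2.76 (adjusted p = 0.00142). These 4 calls held whichever tumour of the groups compared was left out. The fit without the 3 libraries has 1 p66Low aggressive tumour. There the rises were 1.83 and 2.53 and the differences between aggressive groups -1.98 and -2.82. Since T cells also carry CD103, the summed level of 8 T cell genes is given: 92, 153.7 and 29.6 CPM in p66Low aggressive tumours, 27.8 CPM in p66High parental replicate 3 and 1.38 to 8.02 CPM in the other 8. Their part in the Itgae values was not tested. Of the 50-base words of Itgax, 8.02% also occur in Itgad.

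The more restricted cDC1 genes were low, and their calls did not hold without the libraries with lymph node RNA. Xcr1, the receptor for the chemokine XCL1, was at 0.216, 0.365 and 0.364 CPM in p66Low parental, 0.226, 0.281 and 1.34 in p66High parental, 2.61, 4.18 and 1.41 in p66Low aggressive and 0.761, 0.0786 and 0.0863 CPM in p66High aggressive tumours. Clec9a, a receptor for dead cells, was at 0.270, 0.162 and 0.156, then 0.248, 0.211 and 0.945, then 0.834, 2.28 and 0.799, and 0.305, 0.275 and 0 CPM. The p66High parental tumour with lymph node RNA was the highest of its group for both genes, and p66Low aggressive replicate 3 lay above all 3 p66Low parental tumours. Xcr1 rose by 3.12 on the log2 scale in p66Low selection (SE 0.86, edgeR adjusted p = 0.0294) and Clec9a by 2.72 (SE 0.81, adjusted p = 0.0402). Between aggressive groups they fell by 3.00 and 2.68 (adjusted p = 0.0266 and 0.0369). Xcr1 lay below the floor of 3 counts in p66High aggressive replicates 2 and 3 (floors 0.118 and 0.129 CPM), and Clec9a in replicate 3. The size of these falls is therefore uncertain. In p66Low selection neither passed without any 1 of p66Low parental replicates 1 to 3 or p66Low aggressive replicates 1 and 2 (adjusted p = 0.0573 to 0.107 for Xcr1 and 0.0553 to 0.181 for Clec9a). Between aggressive groups Xcr1 was lost without p66Low aggressive replicate 1 or 2 or p66High aggressive replicate 2 or 3 (0.0506 to 0.1), and Clec9a without p66Low aggressive replicate 2 or p66High aggressive replicate 1, 2 or 3 (0.0632 to 0.173). With the 3 libraries left out, the rises were 2.16 and 1.99 (adjusted p = 0.25 and 0.28) and the differences between aggressive groups -2.04 and -1.94 (adjusted p = 0.244 and 0.27). Exons of Clec9a overlap Clec1b on the same strand. Batf3, a transcription factor gene that cDC1 need, ranged from 0.316 to 1.65 CPM with its highest level in p66High aggressive replicate 1. It was not called in the main fit. In p66Low selection it passed with DESeq2 (adjusted p = 0.0371) and in edgeR with tumours sharing a title number summed (0.0351).

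Flt3 and Siglech also rose, and their calls did not hold without the libraries with lymph node RNA. Flt3 was at 0.648, 1.06 and 0.572 CPM in p66Low parental, 1.17, 1.13 and 2.90 in p66High parental, 5.0, 6.97 and 1.98 in p66Low aggressive and 1.29, 0.432 and 0.216 CPM in p66High aggressive tumours. Siglech, a surface lectin gene of plasmacytoid dendritic cells, was at 1.05, 0.609 and 0.468, then 0.744, 0.809 and 1.94, then 5.68, 9.88 and 2.91, and 1.32, 0.393 and 0.0863 CPM. In p66Low selection the log2 rise was 2.63 for Flt3 (SE 0.65, edgeR adjusted p = 0.0186) and 3.11 for Siglech (SE 0.73, adjusted p = 0.0156), and without the 3 libraries 1.4 and 2.02 (adjusted p = 0.34 and 0.24). Both lost the call without p66Low parental replicate 3 (0.0782 and 0.0704) or p66Low aggressive replicate 2 (0.0756 and 0.0641), and Flt3 also without p66Low parental replicate 1 (0.0668). Between aggressive groups they fell by 2.77 and 3.27 (adjusted p = 0.0117 and 0.00975), calls that held whichever tumour of the groups compared was left out. Siglech lay below the floor of 3 counts (0.129 CPM) in p66High aggressive replicate 3. Those differences were -1.53 and -2.17 without the 3 libraries (adjusted p = 0.26 and 0.18). Zbtb46, a transcription factor gene of conventional dendritic cells that endothelium also expresses, ranged from 7.45 to 15.6 CPM and differed by -0.03 in p66Low selection (adjusted p = 0.954).

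The co-stimulatory ligand genes and the lectins of cDC2 and monocyte-derived cells completed the list. Cd86 was at 2.86, 3.86 and 3.25 CPM in p66Low parental, 3.74, 2.78 and 5.01 in p66High parental, 11.3, 16.1 and 7.55 in p66Low aggressive and 2.56, 3.30 and 1.12 CPM in p66High aggressive tumours. All p66Low aggressive tumours lay above the rest, with replicate 3 the lowest of them. Cd86 rose by 1.81 in p66Low selection (SE 0.38, edgeR adjusted p = 0.00893) and fell by 2.31 between aggressive groups (SE 0.39, adjusted p = 0.00216), calls that held whichever tumour of the groups compared was left out. The values were 1.18 (adjusted p = 0.2) and -1.68 (adjusted p = 0.063) without the 3 libraries. Its partner Cd80 ranged from 0.0863 to 1.97 CPM and did not pass in the main fit (1.61 in p66Low selection, adjusted p = 0.0842). With DESeq2 Cd80 passed between aggressive groups (adjusted p = 0.0229). Cd209a, a lectin gene of monocyte-derived dendritic cells, was at 1.94, 0.568 and 0.676, then 1.13, 1.76 and 1.31, then 3.65, 2.59 and 0.285, and 0.457, 0 and 0 CPM. It was lower by 3.53 in p66High than in p66Low aggressive tumours (SE 1.10, adjusted p = 0.041), although p66High aggressive replicate 1 lay above p66Low aggressive replicate 3. That call was lost without p66Low aggressive replicate 1 or 2 or p66High aggressive replicate 2 or 3 (0.105 to 0.112), and the difference was -0.63 without the 3 libraries (adjusted p = 0.86). The galactose lectin genes Clec10a and Mgl2 share 9.02% and 13.1% of their 50-base words mainly with each other. They ranged from 0.733 to 30.8 and from 0.518 to 10.3 CPM and were not called in the main fit.

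Between parental tumours, none of the 36 genes passed, while 8.08% of all genes tested did. The median log2 difference of p66High against p66Low was 0.22 for macrophage and 0.74 for dendritic cell genes, against -0.01 for all genes. At an unadjusted p under 0.05, where 22.9% of all genes tested lay, there was 1 gene of each list, Mertk (0.65, edgeR adjusted p = 0.0829) and Itgae (1.14, adjusted p = 0.117), and DESeq2 called the same 2 genes. Without p66High parental replicate 3 and the other 2 libraries the medians were 0.30 and 0.33. In p66High selection no dendritic cell gene passed, with a median of -0.90 for them and -0.19 for the macrophage genes. These medians were -0.48 and -0.30 without the 3 libraries. There were 3 dendritic cell genes (3 of 13) at an unadjusted p under 0.05, where 22.7% of all genes tested lay, and DESeq2 called 2, Itgae and Cd209a. The lowest adjusted p among them was that of Itgae (-1.45, SE 0.41, adjusted p = 0.0648), which passed without the filter on low counts (0.0485) and without p66High aggressive replicate 1 (0.0365).

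The effect of selection differed between the lines for 17 of the 36 genes. The interaction, selection in p66High minus selection in p66Low, was below 0 and past the threshold for 10 of 23 macrophage and 7 of 13 dendritic cell genes, where 7.99% of all genes tested were called in that direction. The medians were -1.16 and -2.58, against 0.05 for all genes. Itgae had the smallest adjusted p (-3.90, SE 0.59, edgeR adjusted p = 0.00349), followed by Cd86 (-2.54, SE 0.54, 0.0138) and C1qc (-1.16, SE 0.24, 0.0138). With Aif1 and C1qb, these kept the call whichever of the 12 tumours was left out. With tumours sharing a title number summed, 7 of the 17 calls held (C1qb, C1qc, Fcer1g, Aif1, Itgae, Flt3 and Cd86), and the other 10 had an adjusted p of 0.0549 to 0.0943. Among macrophage genes 6 calls were left without p66Low parental replicate 1 and 3 without its replicate 3. There were 4, 5 and 6 without p66High parental replicates 1, 2 and 3, and 3 without p66Low aggressive replicate 2. Counts of dendritic cell genes were 4, 2, 3, 3 and 4 without p66Low parental replicate 1, p66Low parental replicate 3, p66High parental replicate 3, p66Low aggressive replicate 2 and p66High aggressive replicate 2. Without the 3 libraries with lymph node RNA, with 1 p66Low aggressive tumour left, Itgae was at -3.60 and most member calls were lost. The medians were -1.01 and -1.67, against 0.04 for all genes.

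Single tumours carried much of the spread. Of the 36 genes, 19 had their highest level in p66Low aggressive replicate 2 and 9 in p66Low aggressive replicate 1, while 27 had their lowest in p66High aggressive replicate 3 (18 macrophage and 9 dendritic cell genes). The share of all genes tested with such an extreme in these tumours was not counted. In p66Low aggressive replicate 3, low in lymph node RNA, 15 of 23 macrophage and 8 of 13 dendritic cell genes lay above all 3 p66Low parental tumours, against 32.5% of all genes tested. The median ratio to the p66Low parental mean was 1.56 and 2.27 there, and 2.05 and 4.55 in p66Low aggressive replicate 2. In p66High aggressive replicate 3, 20 of 23 macrophage and 12 of 13 dendritic cell genes lay below all 3 p66High parental tumours, against 36% of all genes tested, with median ratios of 0.571 and 0.140. Its T cell genes summed to 1.38 CPM and its NK cell genes to 0.561 CPM, the lowest of the 12. The sums of endothelial genes (58.6 CPM) and fibroblast genes (389 CPM) were also the lowest of the 12 there, while the epithelial genes summed to 2771 CPM. Pecam1, Cdh5, Kdr, Pdgfra and Col1a1, which at 334 CPM made up most of the fibroblast sum, were each lowest there. Emcn, Dcn and Lum were not: they were at 6.30, 23.2 and 15.5 CPM, against 5.17, 14.1 and 6.91 CPM in p66Low aggressive replicate 3. The part of the tumour's overall stroma in these values was not tested.

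Levels relative to C1q within a tumour showed which genes moved apart from it. Mrc1 was at 9.30% of the summed C1q CPM in p66Low aggressive replicate 3 and at 26.4% to 83.9% in the other 11 tumours. Cd163 was at 0.696% in that tumour and 0.996% in p66High aggressive replicate 3, against 3.05% to 7.59% in the other 10. Itgax was at 11.0%, 12.4% and 14.8% in p66Low aggressive tumours and 4.85% to 9.23% in the others. Ccr2 was lowest in p66High aggressive replicate 3, at 2.64%, and highest in p66Low aggressive replicate 1, at 44.4%. The tumours lowest in Mrc1 on this scale were also the lowest in fat. Summed CPM of 6 adipocyte genes was 25.4, 8.20 and 16.6 for p66Low aggressive replicate 3, p66High aggressive replicate 3 and p66Low parental replicate 2. It was 40.0 to 247 in the other 9. In p66Low parental replicate 2 Mrc1 was at 29.3%. Its Cd163, at 3.05%, was close to the 3.39% of p66Low aggressive replicate 2, whose adipocyte sum was 111 CPM. Next lowest in fat were p66High aggressive replicate 2 (40.0 CPM) and p66Low parental replicate 3 (44.2 CPM). There Cd163 was at 6.42% and 7.59%, and Mrc1 at 50.7% and 61.4%. The part of fat pad tissue in these values was not tested.

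**Figure D5:**
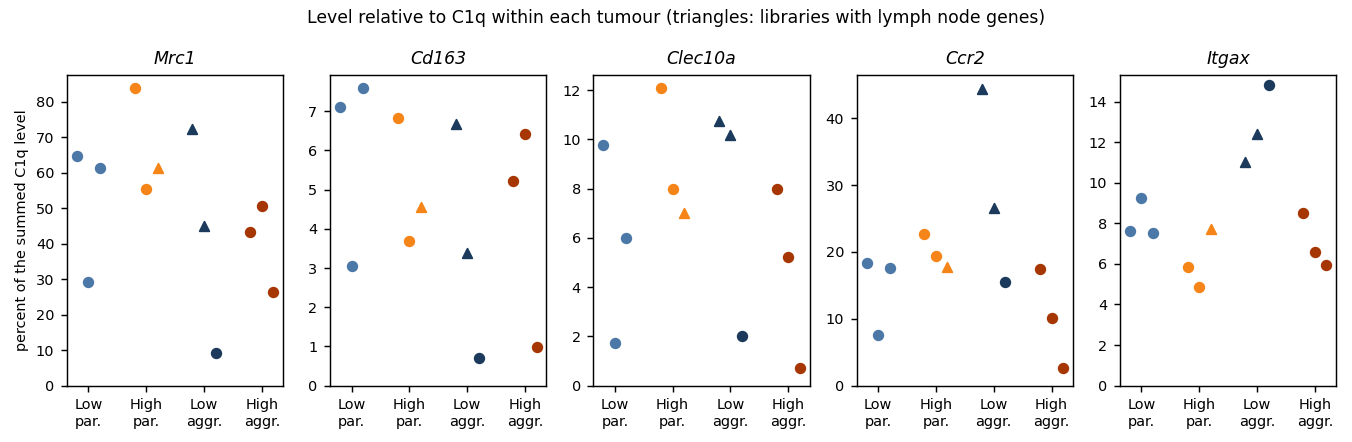
Level of Mrc1, Cd163, Clec10a, Ccr2 and Itgax as a percent of the summed CPM of C1qa, C1qb and C1qc in each tumour (points), by group; triangles are the 3 libraries with lymph node RNA. The round point of the p66Low aggressive group, replicate 3, is the lowest of all tumours for Mrc1 at 9.30% and the highest for Itgax at 14.8%.

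Further genes listed for these cells were read from 3 lists, and not all of them are restricted to the cells. In p66High aggressive replicate 3, where the dendritic cell members were low, the dendritic list's Cd24a was at 441, Id2 at 255 and Tcf4 at 203 CPM. In p66Low selection 11 of 20 further macrophage genes rose and none fell, where 9.6% of all genes rose, with a median log2 difference of 0.84: the 4 with the smallest p were Irf5 (1.63), Cd84 (1.54), the PU.1 gene Spi1 (1.42) and the high-affinity Fc receptor gene Fcgr1 (1.4). Of 18 further dendritic cell genes 14 rose, among them the double-stranded RNA receptor gene Tlr3 (1.23), Ccr9 (4.14), the plasmacytoid factor gene Tcf4 (0.62) and Fscn1 (1.15). Of 13 growth and recruitment ligands and receptors tested, out of 15 listed, 9 rose, among them Xcl1, the ligand of XCR1 (4.22), Ccl12 (1.28) and Il10ra (1.72). Without the 3 libraries none of the macrophage list, 3 of the dendritic list (Bst2, Cd24a and Tlr3) and Xcl1 alone of the ligands passed, where 3.47% of all genes did. Between aggressive groups 11 of 20 macrophage genes, 12 of 18 dendritic cell genes and 10 of 13 ligands and receptors fell, where 12.1% of all genes fell, and 2 of the macrophage genes rose, among them P2ry12 (0.86), where 8.92% rose. Without the 3 libraries 2, 3 and 1 fell, where 5.29% of all genes passed. In p66High selection, where 5.94% of all genes passed, the calls were a fall of Cd14 (-1.02) and rises of Tcf4 (1.02) and Fscn1 (0.91), and between parental tumours, where 8.08% passed, rises of Cd14 (1.08), P2ry12 (0.99), Tlr3 (0.81) and Xcl1 (2.31). The interaction was called below 0 for 9, 11 and 7 genes of the 3 lists, against 7.99% of all genes, and for 1 of each list without the 3 libraries (Cd14, Tlr3 and Xcl1, against 1.65%). Those called with all 12 tumours included Irf5 (-1.95), Tlr3 (-1.81) and Xcl1 (-5.20). Xcl1 is made by NK and CD8 T cells, and 6 NK cell genes summed to 15.5 to 21.8 CPM in p66Low aggressive tumours against 0.561 to 6.69 CPM in the other 9.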

How the data were processed

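RNA of 12 bulk tumours was measured. Libraries were stranded and rRNA-depleted, per the labels' protocols. The tools the authors named in the submitters' processing notes were featureCounts 1.4.4, STAR 2.3.0e and Trimmomatic 0.32, on build mm10. The deposited values are raw read counts per gene, not normalized. Not given in the sources used here were the annotation, the strand setting and the handling of multi-mapped reads. No value column was left unused (0).

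The tests were run in edgeR 4.0.16 under R 4.3.3: filterByExpr by group, TMM scaling, a 4-group model over all 12 tumours (8 residual degrees of freedom), quasi-likelihood F-tests and Benjamini-Hochberg adjustment over 19370 genes at a threshold of 0.05. Levels are CPM over TMM-scaled libraries, and the SE of a log2 fold change is its size divided by the root of F. Exon lengths and shared 50-base words come from GENCODE M21. The fit was also run on simulated counts of independent tumours. These held no shared mice and no libraries set apart by lymph node RNA, so that run cannot speak to either. Within groups, pairs of tumours differed beyond sampling noise (chi-square per degree of freedom at least 19.1). Intervals from counting were not used, and floors cover counting error only.

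The members and lists were chosen with earlier results of these data known. Every tumour's value is given for members past the threshold in a comparison, and other members by range. From each list of further genes at most 4 of the smallest p are named, apart from genes named because a count was small. Alternatives were other scalings, DESeq2 1.42.0, no filter, only the 6 tumours compared, summing tumours whose titles share a number, leaving out each tumour and, chosen after seeing the data, leaving out the 3 libraries with more than 20 summed CPM of lymph node stroma genes.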

Additional observations from a re-analysis of the deposited data

Results flagged for a closer look

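The effect of selection differed between the p66High and p66Low lines for 17 genes, by the edgeR interaction test (log2 difference, selection in p66High minus selection in p66Low, adjusted p below the threshold of 0.05 over all genes). All 17 were below 0, where 7.99% of all genes tested were called in that direction. Among C1q and receptor genes the difference was -1.29 for C1qa, -1.11 for C1qb, -1.16 for C1qc, -1.38 for Csf1r, -0.99 for Mertk, -1.29 for Tyrobp and -1.42 for Fcer1g. Among other macrophage genes it was -1.37 for Aif1, -1.88 for Lyz2 and -3.00 for Ccr2. Among dendritic cell genes it was -4.05 for Xcr1, -3.98 for Clec9a, -3.90 for Itgae, -1.60 for Itgax, -4.0 for Flt3, -4.01 for Siglech and -2.54 for Cd86. For Mertk the p66High line fell while the p66Low line differed by 0.10, whereas the other 16 have a larger difference in p66Low than in p66High selection. With tumours sharing a title number summed, 7 of the 17 calls held. Those of Itgae, Cd86, C1qc, Aif1 and C1qb held whichever tumour was left out. Without the 3 libraries with lymph node RNA, 1 p66Low aggressive tumour was left. The difference was then further from 0 for C1qa, C1qb, C1qc, Fcer1g, Aif1 and Itgax. It was nearer 0 for the others, as in Xcr1 (-1.74), Clec9a (-2.17), Flt3 (-2.16) and Siglech (-2.30). Groups of 3 tumours are too small for a test of single outlying tumours.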

How the results depend on the processing

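No member past the threshold changed direction under any alternative run. Of members not past it, 8 changed sign in p66Low selection without the 3 libraries with lymph node RNA (Mrc1, Cd163, Marco, Mertk, Ccl2, Cd209a and Clec10a to below 0 and Trem2 to above 0), and 6, 4, 8 and 7 did between parental tumours, in p66High selection, between aggressive groups and in the interaction. With DESeq2 2549 genes passed between parental tumours (1 macrophage and 1 dendritic cell gene) and 2261 in p66High selection (2 dendritic cell genes). With only the 6 tumours compared, 2128 genes passed in p66Low selection, 1 macrophage gene between parental tumours, and 6 macrophage and 5 dendritic cell genes between aggressive groups. Without the filter 1 dendritic cell gene passed in p66High selection. With tumours sharing a title number summed, 908 genes passed between parental tumours, 305 in p66High selection (0 macrophage genes) and 1179 in the interaction (4 macrophage and 3 dendritic cell genes). Chosen after seeing the data, the fit without the 3 libraries with lymph node RNA called 838 genes between parental tumours, 705 in p66Low selection (2 macrophage and 2 dendritic cell genes), 586 in p66High selection (0 macrophage genes), 1075 between aggressive groups (3 and 2) and 335 in the interaction (0 and 1). It has fewer tumours, with 1 left in the p66Low aggressive group, and the cause was not tested.

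Leaving out in turn each tumour of the groups compared (each of the 12 for the interaction) gave 871 to 1927 genes between parental tumours (0 to 0 for either list), 1545 to 3505 in p66Low selection (4 to 12 macrophage and 3 to 9 dendritic cell genes), 457 to 756 in p66High selection (0 to 1 for either list), 2438 to 4502 between aggressive groups (7 to 15 and 5 to 9) and 1179 to 3278 in the interaction (3 to 14 and 2 to 8). Tumours outside the groups compared are not in these ranges. Without 1 of them, p66High aggressive replicate 3, Mertk (edgeR adjusted p = 0.0401) and Itgae (0.0497) passed between parental tumours. Scaling by library size alone moved the median of all genes from -0.02 to 0.09 in p66Low selection, where 73.6% of calls were then higher against 57.7%, and from 0.05 to -0.06 in the interaction, where 23.3% were higher against 35.4%. Every call of a member held under that scaling, RLE size factors and DESeq2. No paired analysis was possible because the labels give no replicate number shared between groups.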
